A study of Nematostella vectensis with 18 samples.

Results

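The transcriptomes of reporter-sorted cells from the tentacles of the sea anemone Nematostella vectensis were compared between Nep3-positive cnidocytes (5 libraries) and Ncol3-positive cnidocytes (4 libraries), which are 9 of the 18 libraries of the series. The libraries were chosen by their sample titles. Nep3-positive cells came from a line of genotype Nep3::mOrange and Ncol3-positive cells from a line of genotype Ncol3::mOrange, in which the fluorescent protein mOrange reports on the gene named. All animals were untreated polyps kept at 18 °C and 16 permil salinity. Tentacles were dissociated with enzymes, cells were sorted by fluorescence, and directional libraries were made from poly(A) RNA. The cells outside the gate of each line were sequenced too, as Nep3-negative (5 libraries) and Ncol3-negative (4 libraries). They are used here to describe how far the cells outside the gates differ between the lines. Such a difference mixes line with the cells that each gate left outside, and these cannot be told apart.

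Each population came from its own reporter line, so a difference between the positive populations and a difference between the lines cannot be told apart. The labels do not say how the lines were founded, how many animals went into a library or whether libraries of a group came from separate animals. The p-values therefore measure the spread between these libraries, which may be technical. Ncol3-positive replicates 1 and 2 were close to each other, as were 3 and 4: the chi-square of their counts per degree of freedom was 7.29 and 8.08, against 65.7 to 91.5 for the other pairs of the group. Nep3-positive replicates 3 and 4 were as close, at 6.29, against 14.8 to 40.8 for the other pairs of that group. Nep3-negative replicates 1 and 2 stood at 6.53, and 3 and 4 at 11.3. Whether any of these pairs share a source is not given. If they do, the libraries of these groups stand for fewer independent samples and the p-values are too small. All 18 libraries carry the same batch label. Replicate numbers follow the titles, because the description field of every Nep3-positive library says 1. In sorted bulk samples, a lower level can reflect fewer cells of a type or less RNA per cell, and these cannot be told apart.

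Cnidocytes are the stinging cells of cnidarians. Each carries an explosive capsule, built in the secretory pathway from minicollagens and filled with toxins and other small proteins, and sea anemones have several types of them that differ in the shape of the capsule and its thread. Ncol3 encodes a minicollagen of the capsule wall and Nep3 a protein of the capsule content. The cells outside a gate can hold every cell type of the tentacle, including cnidocytes that the reporter did not mark.

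Each Nep3-positive library held between 7627503 and 15269119 counts, and each Ncol3-positive library between 8608957 and 11180654 counts. The deposited table names its genes by NV2 numbers, and none of these could be matched to a gene name, so the labels of the populations could be checked only against the reporter transcript and no role is given for a gene. The table holds no gene positions or sequences. Unless stated otherwise, levels are in CPM, counts set relative to the library total, after scaling with TMM (trimmed mean of M-values), which sets libraries on a common scale by assuming that most genes do not differ. A gene was called when its adjusted p-value was under 0.05 (edgeR quasi-likelihood test, Benjamini-Hochberg adjustment over 18976 genes).

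The reporter transcript mOrange2 was present in every positive library, with no difference between the positive populations that passed the test. It stood at 618, 928, 539, 798 and 675 CPM in Nep3-positive replicates 1 to 5, and at 674, 774, 1106 and 1204 CPM in Ncol3-positive replicates 1 to 4. The ranges overlapped, with Ncol3-positive replicates 3 and 4 above all Nep3-positive libraries. The means were 712 ± 154 CPM (SD, n = 5) and 939 ± 255 CPM (n = 4), and the log2 fold change of −0.40 (SE 0.43) was not called (edgeR adjusted p = 0.503; exact permutation test of CPM, two-sided, p = 0.175). The sign of this small difference depended on the scaling. Without TMM factors mOrange2 stood between 568 and 984 CPM in Nep3-positive libraries and between 646 and 696 CPM in Ncol3-positive libraries, with a log2 fold change of 0.14 (edgeR adjusted p = 0.756). The negative cells of the lines did differ: mOrange2 was at 87.5 ± 69.9 CPM in Nep3-negative cells (n = 5) and at 299.0 ± 80.1 CPM in Ncol3-negative cells (n = 4), a log2 fold change of −1.77 (SE 0.44, edgeR adjusted p = 0.0163).

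**Figure D1:**
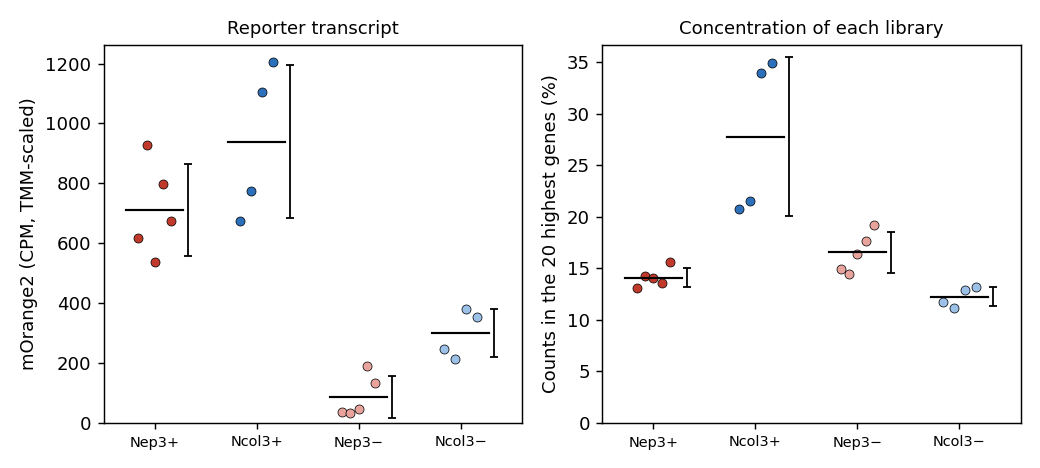
Level of mOrange2 in CPM after TMM scaling (left) and percentage of each library's counts that its 20 highest genes hold (right). Each point is a library, horizontal lines are means and bars are SDs; + and − mark the positive and negative populations. Ncol3-positive libraries hold 2 replicates with 20.7% and 21.5% of their counts in these genes and 2 with 34.0% and 34.9%, all above the highest Nep3-positive library at 15.6%.

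The highest genes held a smaller share of the RNA of Nep3-positive than of Ncol3-positive cells. The 20 highest genes of a library held 13.1%, 14.2%, 14.1%, 13.5% and 15.6% of the counts in Nep3-positive replicates 1 to 5, and 20.7%, 21.5%, 34.0% and 34.9% in Ncol3-positive replicates 1 to 4. The groups did not overlap, and Ncol3-positive replicates 3 and 4 stood far above replicates 1 and 2. The means were 14.1% ± 0.954 (SD, n = 5) and 27.8% ± 7.71 (n = 4), a difference of −13.7 percentage points (exact permutation test, two-sided, p = 0.0159, the smallest that 5 against 4 libraries allow; adjusted p = 0.0317, Benjamini-Hochberg, for this test and that of genes detected). With any 1 of the 9 libraries left out the groups stayed apart, but the adjusted p lay between 0.0571 and 0.0714. The unadjusted exact permutation p was then 0.0286 or 0.0357, the smallest that these numbers of libraries allow. The loss of the call thus reflects fewer libraries and not an overlap. Between 17064 and 17595 genes reached 1 CPM in Nep3-positive libraries, without TMM scaling, and between 15462 and 17548 did in Ncol3-positive libraries. The difference of the means, 949 genes, did not pass (exact permutation p = 0.175, n = 5 and 4). After thinning all libraries to 5463324 counts, genes with any count were compared, a lower cutoff than 1 CPM. The difference in these was 474 genes (exact permutation p = 0.27), which cannot be set against the 949. At a minimum of 5 CPM the difference was 1678 genes and passed (exact permutation p = 0.0159, adjusted 0.0159). Against Ncol3-positive replicates 1 and 2 alone, the difference at 1 CPM was 25.7 genes.

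Of the 20 genes with the highest mean, 8 (40.0%) were shared by Nep3-positive and Ncol3-positive cells, and 15 (75.0%) were shared by the Nep3-negative and Ncol3-negative cells of the same lines. Of the 100 highest, 49 were shared by the positive populations and 83 by the negative ones. Across all tested genes, Pearson's r of log2 CPM lay between 0.855 and 0.902 for pairs of a Nep3-positive and an Ncol3-positive library. It lay between 0.954 and 0.972 among Nep3-positive libraries and between 0.936 and 0.970 among Ncol3-positive libraries. Pairs of a Nep3-negative and an Ncol3-negative library reached 0.919 to 0.949, above every pair of positive libraries from the 2 lines. These values are across genes, which are not independent replicates. Nep3-positive replicate 5 had the lowest values against the Ncol3-positive libraries, 0.855 against replicates 3 and 4.

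The direct comparison of the positive populations called 7054 of 18976 genes (37.2%). Of these, 3926 were higher (20.7% of all tested) and 3128 lower (16.5%) in Nep3-positive than in Ncol3-positive cells, and 3840 (20.2%) differed at least 2-fold. The unadjusted p-value was under 0.05 for 8605 genes. Of the called genes, 2931 higher and 2372 lower ones had no overlap in CPM between the positive libraries. Among all tested genes, 3169 (16.7%) and 2500 (13.2%) had no overlap in these directions. The calls rest on the same libraries, which favours this outcome, so it is a description. Over all genes the log2 fold change had a median of 0.11, and of 0.56 when scaled by library size only. With library size only, 9626 genes were called and 82.9% of them were higher in Nep3-positive cells, instead of 55.7%. The split into higher and lower genes therefore depends on the scaling. With the closest libraries of a group summed and counted as 1 sample, 4817 genes were called, of which 42.8% were higher. Against Ncol3-positive replicates 1 and 2 alone, with Ncol3-negative replicates 1 and 2 in the fit, 4518 genes were called, of which 4166 were among the 7054 in the same direction.

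**Figure D2:**
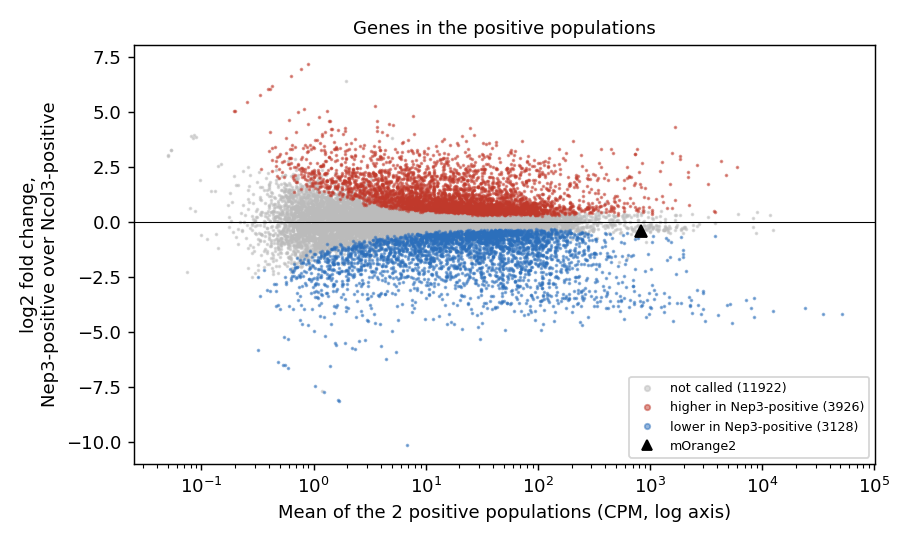
Mean level in the positive populations (CPM, log axis) against the log2 fold change of Nep3-positive over Ncol3-positive cells, 1 point for each of 18976 genes. Red points are the 3926 genes called higher and blue points the 3128 called lower in Nep3-positive cells, and the triangle is mOrange2. Among genes with a mean of 1000 CPM or more over all 18 libraries, which is not the axis shown, 33 blue and 11 red points lie at least 2-fold from 0. Points far from 0 at low levels are genes with few or no counts in a population, whose fitted values depend on the prior count.

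With TMM, more genes were lower than higher in Nep3-positive cells among differences of 4-fold or more, and with library size only this order was reversed. With TMM, genes higher and lower by at least 2-fold were about as many, 1915 and 1925. At 4-fold or more there were 709 higher and 854 lower genes, at 8-fold or more 173 and 341, and at 16-fold or more 37 and 89. With library size only there were 1239 higher and 535 lower genes at 4-fold or more, and 65 and 40 at 16-fold or more. Of 129 genes with a mean of 1000 CPM or more over all 18 libraries, 60 were called, 19 higher and 41 lower, and at least 2-fold changes numbered 11 and 33. With library size only, 36 of these abundant genes were called higher and 34 lower, and 16 and 29 by at least 2-fold. Between 1 and 10 CPM the called genes were 1282 higher and 847 lower. Low levels were measured less precisely: the median SE of the log2 fold change was 0.38 between 1 and 10 CPM, where 28.6% of the genes were called, and 0.17 between 100 and 1000 CPM, where 53.4% were.

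Since the genes at least 4-fold apart were chosen by the same contrast, their shares in the positive libraries are a description. The 709 genes at least 4-fold higher in Nep3-positive cells took between 8.45% and 14.0% of the counts of Nep3-positive libraries, and between 1.04% and 1.48% of those of Ncol3-positive libraries. The 854 genes at least 4-fold lower took between 4.09% and 5.26% in Nep3-positive libraries. In Ncol3-positive libraries they took 27.4%, 27.6%, 46.7% and 48.7% in replicates 1 to 4. Replicates 3 and 4 were again the highest, as they were for the 20 highest genes.

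Their levels in the negative populations entered the choice only through the filter, the scaling and the estimate of the spread. The genes at least 4-fold lower in Nep3-positive cells took 14.1%, 13.6%, 15.9%, 16.8% and 23.8% of the counts in Nep3-negative replicates 1 to 5, and 4.13%, 4.64%, 9.19% and 11.3% in Ncol3-negative replicates 1 to 4. Every Nep3-negative library stood above every Ncol3-negative one. Every Nep3-negative library also stood above every Nep3-positive one for these genes. The genes were chosen as low in the Nep3-positive libraries, which favours this outcome, so it is a description. The genes at least 4-fold higher in Nep3-positive cells took between 0.787% and 0.934% in Nep3-negative libraries and between 0.607% and 0.862% in Ncol3-negative libraries, ranges that overlap.

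**Figure D3:**
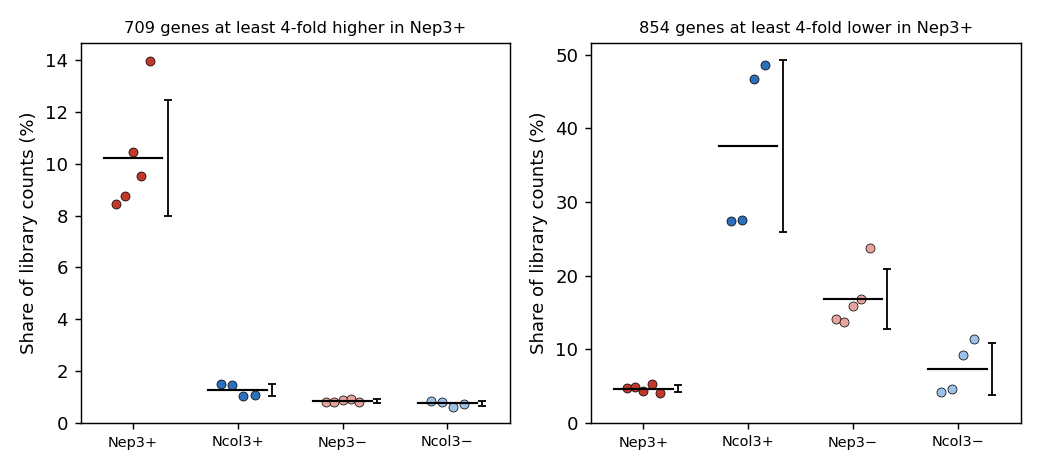
Share of each library's counts, in percent, held by the genes called at least 4-fold higher (left) and at least 4-fold lower (right) in Nep3-positive than in Ncol3-positive cells. Points are libraries, lines means and bars SDs. The genes were chosen by the contrast of the positive libraries, and the negative libraries entered it only through filter, scaling and spread. On the right all 5 Nep3-negative libraries (13.6% to 23.8%) lie above all 4 Ncol3-negative libraries (4.13% to 11.3%).

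Genes called higher in Nep3-positive cells had a median level of 24.7 CPM there and 12.0 CPM in Ncol3-positive cells, against 14.0 CPM in Nep3-negative and 12.7 CPM in Ncol3-negative cells. Genes called lower had a median of 13.9 CPM in Nep3-positive and 34.7 CPM in Ncol3-positive cells, against 23.0 CPM in Nep3-negative and 19.1 CPM in Ncol3-negative cells. Of the 3926 higher genes, 80.1% had their highest mean of the 4 populations in Nep3-positive cells, compared with 32.3% of all tested genes. Of the 3128 lower genes, 78.8% had it in Ncol3-positive cells, compared with 23.6% of all tested genes, and 70.7% had their lowest mean in Nep3-positive cells, compared with 26.8%. The choice of the genes favours these outcomes, so no test is attached to them.

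The contrast of the negative populations takes no mean from the positive libraries. The filter, the scaling and the estimate of the spread came from all 18 libraries, so the 2 comparisons are not fully independent. The contrast describes how far the cells outside the gates differ, which mixes line with the cells that each gate left outside. Between Nep3-negative and Ncol3-negative cells 1613 genes (8.5%) were called, 972 higher (5.12%) and 641 lower (3.38%), 1022 (5.39%) differed at least 2-fold, and 4111 had an unadjusted p-value under 0.05. Without Ncol3-negative replicate 2, 1023 genes were called. Among all tested genes 91.5% were not called here. The share was near this among the 3926 higher genes, at 3535 (90.0%), and it was 2386 (76.3%) among the 3128 lower genes. The remaining genes divided as follows. Of the higher genes, 328 (8.36%) were also higher in Nep3-negative cells and 63 (1.61%) were lower there. Of the lower genes, 273 (8.73%) were also lower in Nep3-negative cells and 469 (15.0%) were higher there. The same-direction genes make up 33.7% of the 972 and 42.6% of the 641 genes called between the negative populations. Among all tested genes, the direct comparison called 20.7% higher and 16.5% lower. Across all genes the log2 fold changes of the 2 comparisons had a Pearson r of 0.17 and a Spearman rho of 0.09, given as a description, since the genes share libraries and scaling.

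Among genes higher in Nep3-positive cells, the share that was also called higher in Nep3-negative cells was 4.23% under 2-fold, 10.1% from 2- to 4-fold, 13.1% from 4- to 8-fold, 26.5% from 8- to 16-fold and 40.5% (15 of 37 genes) at 16-fold or more, against a background of 5.12%. The median log2 fold change between the negative populations was 0.06 in the first of these classes and 1.87 in the last. Among genes lower in Nep3-positive cells, the share called in the opposite direction, higher in Nep3-negative cells, was 5.15% under 2-fold, 11.2% from 2- to 4-fold, 30.2% from 4- to 8-fold and 42.9% (108 of 252 genes) from 8- to 16-fold. The median log2 fold change between the negative populations was 0.12 under 2-fold and 1.27 from 8- to 16-fold. In that last class 77.8% of the genes had the higher fitted level in Nep3-negative cells, compared with 52.1% of all tested genes.

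The 89 genes lower by 16-fold or more were split. Of these, 24 (27.0%) were called higher and 36 (40.4%) were called lower in Nep3-negative than in Ncol3-negative cells. Of all tested genes, 5.12% were called higher and 3.38% lower there. In the smaller classes of lower genes, the share also called lower in Nep3-negative cells was 4.90% under 2-fold and 9.52% from 2- to 4-fold. It was 10.5% from 4- to 8-fold and 8.73% from 8- to 16-fold. Taking both directions, 51 of the 126 genes that differed by 16-fold or more (40.5%) differed in the same direction between the negative populations. This share was 25.0% without Ncol3-positive replicate 1 and 23.1% with a minimum mean of 5 CPM, and was between 13.3% (with Ncol3 replicates 3 and 4 only) and 57.7% (limma voom) in the alternatives run. For the 854 genes lower by at least 4-fold, 33.6% were called higher in Nep3-negative cells. The share was 19.1% without Ncol3-negative replicate 1, 18.4% without replicate 2 and 50.6% with a minimum mean of 5 CPM, and it lay between 18.4% and 50.6% in the alternatives run, beside 5.12% of all tested genes called higher in Nep3-negative cells.

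**Figure D4:**
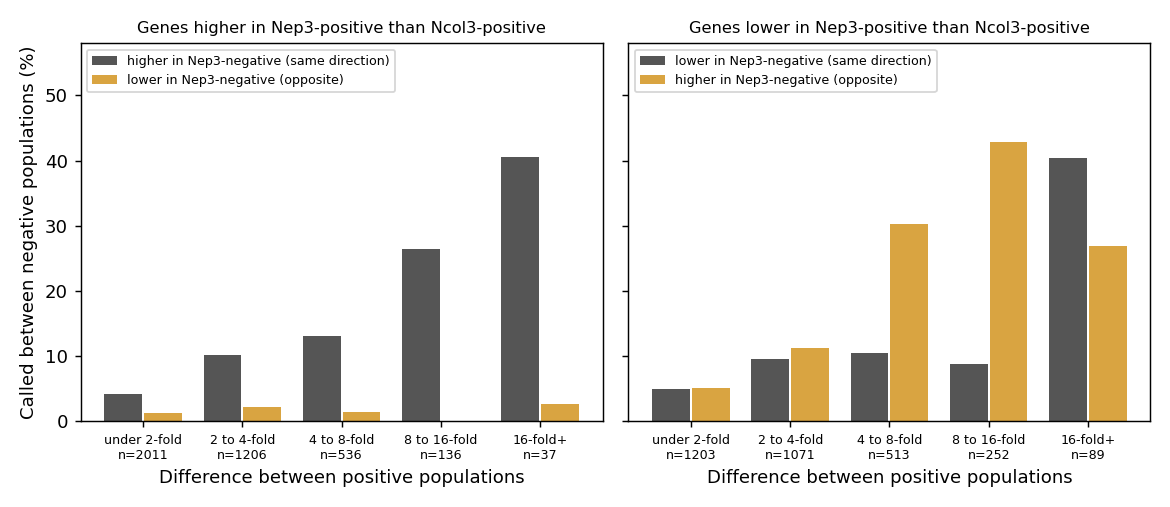
Percentage of genes called between the negative populations, by the size of the difference between the positive populations, for genes higher (left) and lower (right) in Nep3-positive than in Ncol3-positive cells. Grey bars are genes that differed in the same direction in the negative cells and yellow bars those in the opposite direction, with the number of genes under each pair; grey bars grow to 40.5% on the left, and yellow bars reach 42.9% on the right.

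No gene switched cleanly at the levels set: none had at least 10 CPM in every library of a positive population and under 1 CPM in every library of the other. Genes without any count in a whole population were few. With a mean of at least 1 CPM in Nep3-positive cells, 3 genes had no count in any Ncol3-positive library, and 1 of these was called higher in Nep3-negative cells too, against 5.12% of all tested genes. With a mean of at least 1 CPM in Ncol3-positive cells, 9 genes had no count in any Nep3-positive library, and 7 of these were called lower in Nep3-negative cells too, against 3.38% of all tested genes.

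The genes with the largest fold changes, among those with at least 10 CPM in the higher population and no overlap between libraries, were NV2.23815 and NV2.12350 on the higher side and NV2.10420 and NV2.5301 on the lower side. NV2.23815 was at 9.82, 10.6, 17.6, 22.1 and 13.7 CPM in Nep3-positive replicates 1 to 5, and at 0.211, 1.16, 0 and 0.630 CPM in Ncol3-positive replicates 1 to 4. Its log2 fold change was 4.85 (SE 0.45, edgeR adjusted p = 1.41e-08), and 5.64 without Ncol3-positive replicate 2. The gene was also higher in Nep3-negative cells, at 7.95 ± 1.66 CPM (SD, n = 5), than in Ncol3-negative cells, at 1.03 ± 0.346 CPM (n = 4). All Nep3 libraries, inside and outside the gate, were thus above all Ncol3 libraries.

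NV2.12350 was by far the more abundant of the pair. It was at 1626, 2615, 3469, 3094 and 5155 CPM in Nep3-positive replicates 1 to 5, and at 130.3, 144, 169 and 188 CPM in Ncol3-positive replicates 1 to 4, a log2 fold change of 4.34 (SE 0.42, edgeR adjusted p = 1.83e-07). It stood lower outside the gates but differed there in the same direction, with 226 ± 123 CPM in Nep3-negative cells (n = 5) and 44.2 ± 14.3 CPM in Ncol3-negative cells (n = 4; log2 fold change 2.36, SE 0.38, edgeR adjusted p = 0.000572). The difference between gate and outside was larger in the Nep3 line by 1.98 on the log2 scale (SE 0.51, edgeR adjusted p = 0.00766).

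NV2.10420 had no count in any Nep3-positive library, and stood at 6.32, 10.1, 19.3 and 19.1 CPM in Ncol3-positive replicates 1 to 4. Set against a limit of 3 counts over the 5 Nep3-positive libraries, it was at least 256-fold lower in Nep3-positive cells. The exact 95% interval of the ratio, which also takes in the counting error of the 381 Ncol3-positive counts, reached 0.00519, or 192.5-fold lower. It was also nearly absent from Nep3-negative cells, with 5 counts, all in replicate 5, and was at 5.34 ± 0.730 CPM in Ncol3-negative cells (SD, n = 4).

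NV2.5301 was at 0, 0.495, 0.500, 0 and 0 CPM in Nep3-positive replicates 1 to 5, and at 14.1, 10.8, 8.38 and 9.46 CPM in Ncol3-positive replicates 1 to 4 (log2 fold change −5.90, SE 0.63, edgeR adjusted p = 1.17e-07). The log2 fold change was −6.49 without Nep3-positive replicate 2 and −6.71 without replicate 3, the libraries that hold its counts. It had 3 counts in the Nep3-negative libraries and 219 in the Ncol3-negative libraries, a ratio of 0.0111 after scaling (95% interval 0.00228 to 0.0330, exact, counting error only). The difference between gate and outside did not differ detectably between the lines (0.20 on the log2 scale, SE 0.72, edgeR adjusted p = 0.882). All 4 genes named by this rule were also called between the negative populations, in the same direction. Of all tested genes, 5.12% were called higher and 3.38% lower there. Among the 126 genes at least 16-fold apart the same-direction share was 40.5%, so these 4 genes do not stand for that class.

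Whether the step between gate and outside differed between the lines was tested with the difference of the positive-minus-negative differences. The test called 4324 genes (22.8%). The step was higher in the Nep3 line for 2100 of them (11.1%) and lower for 2224 (11.7%). Of all tested genes, 6464 had an unadjusted p-value under 0.05. This comparison uses the same positive libraries as the direct one, so the 2 counts are not independent. With library size only, 8744 genes were called and 86.9% were higher in the Nep3 line, against 48.6% with TMM. The median over all genes was then 0.84, against 0.15 with TMM. A set of 1851 genes (990 higher and 861 lower in Nep3-positive cells) met the rule of being called in the same direction in both comparisons, by at least 2-fold and without overlap between positive libraries, while not being called between the negative populations.

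The most abundant of the 990 genes in Nep3-positive cells were NV2.19682 and NV2.914. NV2.19682 was at 6310.4, 9703, 10101, 8364 and 16650.2 CPM in Nep3-positive replicates 1 to 5, and at 1704.5, 2101, 1471 and 1772 CPM in Ncol3-positive replicates 1 to 4 (log2 fold change 2.54, SE 0.35, edgeR adjusted p = 5.65e-06). Replicate 5 was the highest Nep3-positive library, and the groups were well apart without it. Outside the gates the gene was at 608 ± 222 CPM in Nep3-negative cells (n = 5) and at 456 ± 237 CPM in Ncol3-negative cells (n = 4), so both positive populations stood above both negative ones. The step from outside to inside the gate was larger in the Nep3 line by 2.12 on the log2 scale (SE 0.46, edgeR adjusted p = 0.00147).

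NV2.914 was at 6289, 5725, 8084, 7603 and 11026 CPM in Nep3-positive replicates 1 to 5, and at 1821, 1833, 1503 and 1764 CPM in Ncol3-positive replicates 1 to 4. Its log2 fold change was 2.16 (SE 0.24, edgeR adjusted p = 1.89e-07). It was at 464 ± 53.8 CPM in Nep3-negative cells (n = 5) and at 563 ± 234 CPM in Ncol3-negative cells (n = 4). As for NV2.19682, it was a transcript of both positive populations, with a step larger by 2.44 on the log2 scale (SE 0.32, edgeR adjusted p = 4.03e-06) in the Nep3 line.

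The most abundant of the 861 lower genes were NV2.10392 and NV2.16336. NV2.10392 was at 761, 561, 782, 1002 and 931 CPM in Nep3-positive replicates 1 to 5, and at 7573, 7330.0, 23312 and 26070.5 CPM in Ncol3-positive replicates 1 to 4 (log2 fold change −4.31, SE 0.64, edgeR adjusted p = 5.33e-05). The groups did not overlap, and Ncol3-positive replicates 3 and 4 stood far above replicates 1 and 2. The log2 fold change was −3.26 against Ncol3 replicates 1 and 2 only and −4.94 against replicates 3 and 4 only. In Nep3-negative cells the gene was at 3245, 2573, 3266, 2948 and 7512 CPM in replicates 1 to 5, and in Ncol3-negative cells at 258, 321, 1728 and 2132 CPM in replicates 1 to 4. Every Nep3-negative library thus exceeded every Nep3-positive and every Ncol3-negative library, while the difference between the negative populations was not called (log2 fold change 1.82, SE 0.61, edgeR adjusted p = 0.0812).

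NV2.16336 was at 1019.6, 765, 885, 1225 and 1052 CPM in Nep3-positive replicates 1 to 5, and at 10437, 8893, 16429 and 23921 CPM in Ncol3-positive replicates 1 to 4 (log2 fold change −3.91, SE 0.51, edgeR adjusted p = 9.02e-06). It averaged 4533 ± 2056 CPM in Nep3-negative cells (n = 5) and 1726 ± 1496 CPM in Ncol3-negative cells (n = 4), and here the negative libraries overlapped. Every Nep3-negative library stood above every Nep3-positive one, as for NV2.10392. Both genes were chosen as lower in Nep3-positive cells, which favours this outcome. The step from outside to inside the gate was lower in the Nep3 line by a log2 difference of −5.31 (SE 0.71, edgeR adjusted p = 2.21e-05), and that of NV2.10392 by −6.13 (SE 0.89, edgeR adjusted p = 7.85e-05).

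**Figure D5:**
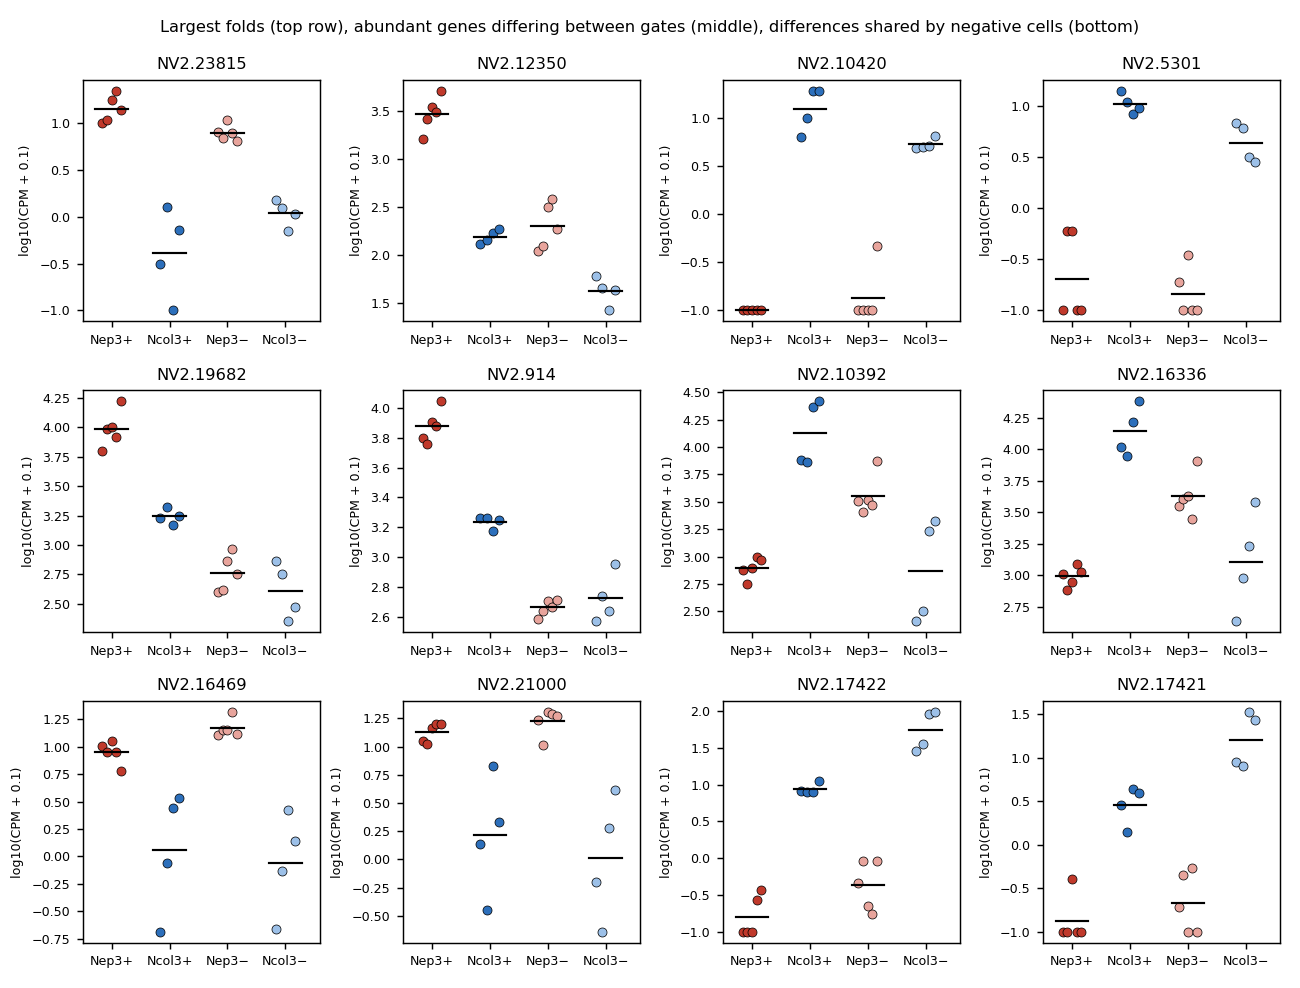
Levels of 12 genes in each library as log10(CPM + 0.1), with lines at the means of these values; a point at −1 has no count. The top row holds the genes with the largest fold changes among those with no overlap and at least 10 CPM in the higher positive population, the middle row the abundant genes whose step between gate and outside differed between lines, and the bottom row those with the largest difference between negative cells among the 601 same-direction genes, at 10 CPM or more in the higher negative population; in the bottom row all Nep3 libraries lie on 1 side of all Ncol3 libraries.

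Of the 601 genes that differed in the same direction between the positive and between the negative populations, those with the largest difference between negative cells, at 10 CPM or more in the higher one, were NV2.16469 and NV2.21000 on the higher side and NV2.17422 and NV2.17421 on the lower side. NV2.16469 was at 9.99, 8.78, 11.3, 8.93 and 5.91 CPM in Nep3-positive replicates 1 to 5, and at 0.105, 0.775, 2.69 and 3.31 CPM in Ncol3-positive replicates 1 to 4 (log2 fold change 2.47, SE 0.59, edgeR adjusted p = 0.00258). Outside the gates it was at 14.9 ± 3.28 CPM in Nep3-negative cells (n = 5) and 1.15 ± 1.05 CPM in Ncol3-negative cells (n = 4; log2 fold change 3.70, SE 0.59, edgeR adjusted p = 0.000521). The call between the positive populations was lost when the closest libraries were summed (log2 fold change 2.29, edgeR adjusted p = 0.052). The log2 fold change was 4.36 against Ncol3 replicates 1 and 2 only and 1.57 against replicates 3 and 4 only.

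NV2.21000 was at 13.4 ± 2.55 CPM in Nep3-positive cells (SD, n = 5) and 2.55 ± 2.82 CPM in Ncol3-positive cells (n = 4), and at 17.1 ± 4.04 CPM in Nep3-negative cells and 1.62 ± 1.75 CPM in Ncol3-negative cells. Its lowest Nep3-positive library, at 10.4 CPM, stood above its highest Ncol3-positive library, at 6.64 CPM. The log2 fold change was 2.46 (SE 0.61, edgeR adjusted p = 0.00411), 3.48 without Ncol3-positive replicate 3 and 1.99 without replicate 2. It was 4.00 against Ncol3 replicates 1 and 2 only, 1.63 against replicates 3 and 4 only, and 2.27 with the closest libraries summed (edgeR adjusted p = 0.0496).

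NV2.17422 and NV2.17421, which bear consecutive numbers, had higher levels in every Ncol3 library than in any Nep3 library, and in every Ncol3-negative library than in any Ncol3-positive one. NV2.17422 was at 0, 0, 0, 0.172 and 0.275 CPM in Nep3-positive replicates 1 to 5, and at 8.11, 7.88, 7.91 and 11.0 CPM in Ncol3-positive replicates 1 to 4. Its log2 fold change was −6.20 (SE 0.65, edgeR adjusted p = 5.12e-07), and −7.17 without Nep3-positive replicate 5. It averaged 0.439 ± 0.360 CPM in Nep3-negative cells (n = 5) and 62.9 ± 35.4 CPM in Ncol3-negative cells (n = 4; log2 fold change −7.11, SE 0.50, edgeR adjusted p = 4.43e-08). NV2.17421 had 3 counts in all Nep3-positive and 87 in all Ncol3-positive libraries, a ratio of 0.0184 after scaling (95% interval 0.00372 to 0.0556, exact, counting error only), and no Nep3-positive count without replicate 3. None of these 4 genes showed a detectable difference between the lines in the step between gate and outside (edgeR adjusted p between 0.328 and 0.753). The SE of that difference on the log2 scale was 0.83 for NV2.16469, 0.87 for NV2.21000, 1.41 for NV2.17422 and 2.05 for NV2.17421. Differences of several-fold could thus be missed. The genes were chosen for calls in the same direction in both comparisons, which favours this outcome. Of all tested genes 22.8% were called in this test.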

How the data were processed

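The deposited table holds raw counts per gene for 18 libraries, 1 column each, with no normalization by the authors; the unit was taken from the whole-number values. Trimmomatic, STAR 2.7.10a and featureCounts 2.0.1 are named in the submitters' processing notes; genome build, annotation, strand setting and filters are not given in the sources used here, so near-identical or overlapping genes are uncertain. Of 24538 entries, 24537 are NV2 numbers and 1 is mOrange2, and 773 had no counts at all. No NV2 number matched the RefSeq gene table, so planned marker lists could not be used.

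Groups came from the titles. Genes were filtered with filterByExpr (18976 kept), scaled with TMM and fitted with edgeR 4.0.16 (R 4.3.3) as 1 robust quasi-likelihood model with a mean for each of 4 populations; the common biological coefficient of variation was 25.4%. Contrasts were Nep3-positive minus Ncol3-positive, Nep3-negative minus Ncol3-negative, and the difference of the positive-minus-negative steps. SEs are the log2 fold change divided by the square root of F. Tests are two-sided with a threshold of 0.05. Log2 CPM for correlations used a prior count of 2. Intervals cover counting error only. Counts were simulated for 18653 genes, 200 of them changed. The direct comparison recovered 52% of 2-fold and 88.9% of 4-fold changes, with 3 false among 143 calls. The difference of steps recovered 17% and 69.7%, with 5 false among 91 calls. Apart from the 200 genes, the simulated positive populations had the same profile, and libraries were drawn independently. In the data 37.2% of genes were called in the direct comparison and some libraries were close in pairs, so these rates need not hold there.

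Named genes are 2 for each direction in 3 rules, with at least 10 CPM in the higher population where ranked by fold: the largest fold changes between positive populations, the most abundant genes with a step that differed between lines, and the largest differences between negative populations. Members, lists and tests were chosen with earlier results of these data known. Alternatives were other scalings, filters and tests (DESeq2 1.42.0, limma 3.58.1), subsets of libraries and replicate blocks.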

Additional observations from a re-analysis of the deposited data

Results flagged for a closer look

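Each named gene was examined for a library that stood apart from the others of its population by Dixon's criterion at the 95% level, as were the composition measures. Of 56 sets of libraries, 7 met it. A set with counts in only 1 library meets the criterion at any level, as for NV2.10420 in Nep3-negative and NV2.17421 in Nep3-positive cells. The rate of about 1 in 20 by chance holds for normally distributed values, so the 7 cannot be set against it. NV2.10392 at 7512 CPM and NV2.16336 at 8065 CPM were both far above the other Nep3-negative libraries in replicate 5. NV2.16469 was high in Nep3-negative replicate 4, at 20.6 CPM. NV2.17422 was high in Ncol3-positive replicate 4, at 11.0 CPM. NV2.10420 was high in Ncol3-negative replicate 4, at 6.42 CPM, and had its only Nep3-negative counts in replicate 5, at 0.373 CPM. NV2.17421 had its only Nep3-positive counts in replicate 3, at 0.300 CPM.

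The step between gate and outside differed between the reporter lines for 4324 genes by the test of the difference itself. Among the named genes this was so for NV2.23815 (1.94 on the log2 scale, edgeR adjusted p = 0.0251), NV2.12350 (1.98), NV2.19682 (2.12), NV2.914 (2.44), NV2.10392 (−6.13) and NV2.16336 (−5.31). NV2.19682, NV2.914, NV2.10392 and NV2.16336 were chosen by a rule that required this call, so their place here was fixed in advance. NV2.10420 was called as well (−4.42, edgeR adjusted p = 0.0491), but it has no count in Nep3-positive cells, so this fitted value depends on the prior count and is not a bound.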

How the results depend on the processing

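Over 18 fits that each left out 1 library, the direct comparison called between 5815 and 7100 genes, the difference of steps between 3615 and 4412, and the comparison of negative populations between 1023 (without Ncol3-negative replicate 2) and 1698. In these fits the log2 fold change of mOrange2 lay between −0.61 and −0.31, the share of at least 4-fold lower genes called higher in Nep3-negative cells between 18.4% and 36.6%, and the same-direction share at 16-fold or more between 25.0% and 44.4%. Leaving out 1 of the 9 positive libraries gave a difference in the 20 highest genes between −16.0 and −11.3 percentage points and in genes detected between 627 and 1322. With library size only, the difference of steps was called for 8744 genes and the log2 fold change of mOrange2 was 0.14. With Ncol3 replicates 1 and 2 only, the direct comparison called 4518 genes and the difference of steps 2681; the difference in the 20 highest genes was −7.00 points. With Ncol3 replicates 3 and 4 only, the negative populations gave 1002 genes, the 2 shares were 19.9% and 13.3%, and the difference in the 20 highest genes was −20.3 points. These subsets cannot reach 0.05 in an exact test. After adjustment the difference in the 20 highest genes did not reach it in any of the 9 leave-one-out tests (adjusted p between 0.0571 and 0.0714). There the unadjusted exact permutation p was 0.0286 or 0.0357, the smallest that such numbers of libraries allow. With the closest libraries summed, the difference of steps was called for 2838 genes and the negative populations gave 1019. Without a filter the same-direction share was 21.3%, and with a mean of at least 5 CPM the shares were 50.6% and 23.1%. At 5 CPM the difference in genes detected was 1678 and passed. The cause of these shifts was not tested. The 2 shares, and the counts by fold under library size only, were added after the data were seen. Of 358 values of the 12 named genes under alternatives, 357 kept direction and call. These genes were chosen by the calls of the main fit, which favours this outcome, and it does not measure how the other calls hold.

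Replicate numbers did not pair libraries across lines: deviations of same-numbered Nep3-positive and Ncol3-positive libraries correlated between −0.027 and 0.041, while within the lines same-numbered libraries had means of 0.141 (Nep3, 0.007 to 0.270) and 0.138 (Ncol3, 0.017 to 0.221), against −0.035 and −0.045 for other pairs. Only 1 of 4 Nep3-positive libraries correlated best with its own number among Ncol3-positive ones, 4 of 5 did with Nep3-negative ones, and 2 of 4 Ncol3-positive libraries did with Ncol3-negative ones. With the replicate block shared across lines, 6951 genes were called in the direct comparison, 4408 in the difference of steps and 1836 between negative populations, and with the replicate block within lines the difference of steps gave 4670. SEs were larger at low levels, and depth was not varied for the calls.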
